A study of Mus musculus with 4 samples.

Results

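Genes of heme breakdown, iron handling and antioxidant defence were followed through every cell population of a mouse sarcoma, in hosts given vehicle or digoxin. The members, taken by symbol, were Hmox1, Fth1, Ftl1, Slc40a1, Tfrc, Nqo1, Gclm, Srxn1, Slc7a11 and Nfe2l2, and all 10 had a row in both deposited expression tables, which together name 18220 genes. Tumors were hind limb sarcomas of genotype KrasLSL-G12D/+;Trp53flox/flox on the 129/SvJae background, carried as allografts; the labels give that genotype and background for all 4 tumor samples, and those of the hosts were not given in the sources used here. Digoxin, a cardiac glycoside that blocks the sodium pump, was injected into the peritoneum at 2 mg/kg every 24 h after dilution from DMSO into PBS, and controls received PBS. Tumors were taken after dose 4. Each group held 2 mice, called replicates 1 and 2, the ages and the source of Cre were not given in the sources used here, and red blood cells were lysed before single-cell RNA sequencing of 3′ ends.

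Heme oxygenase 1, encoded by Hmox1, opens the heme ring and releases iron, carbon monoxide and biliverdin. Freed iron is stored in ferritin, a shell of heavy (Fth1) and light (Ftl1) chains, or exported by ferroportin (Slc40a1), whereas the transferrin receptor (Tfrc) brings iron in. NRF2 (Nfe2l2) is the transcription factor that drives many antioxidant genes, among them the quinone reductase Nqo1, the glutathione synthesis subunit Gclm, the sulfiredoxin Srxn1 and the cystine importer Slc7a11, and it also acts on Hmox1 and the ferritins. Macrophages that take up dying red cells are known for high Hmox1, Slc40a1 and ferritin.

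Of the 10 members, 4 carry an iron-responsive element in their transcript, a hairpin bound by the iron regulatory proteins. In a 5′ UTR such a hairpin lets those proteins block translation when iron is low, and in the 3′ UTR of Tfrc it protects the mRNA, so that RNA levels alone do not give the protein made from Fth1, Ftl1 or Slc40a1. A search for a C, a stem of 5 pairs and the loop CAGTGN between its arms found the element in a UTR of 155 of 21875 genes with a coding transcript (0.709%) on GRCm38 with GENCODE transcripts. The matches in the members are shown with 3 more bases on each side and the loop in capitals, and the coordinates given afterwards are those of the match without these bases.
Fth1 5′ UTR: ctgcttcaaCAGTGCttgaacgg
Ftl1 5′ UTR: ttgcttcaaCAGTGTttgaacgg
Slc40a1 5′ UTR: cttcagctaCAGTGTtagctaag
Tfrc 3′ UTR: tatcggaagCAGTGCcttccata
Tfrc 3′ UTR: tatcgggagCAGTGTcttccata
Tfrc 3′ UTR: tatcggagaCAGTGAtctccata
Tfrc 3′ UTR: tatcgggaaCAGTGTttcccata

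The Fth1 match lies at chr19:9982738-9982754 on the plus strand, the Ftl1 match at chr7:45459785-45459801 on the minus strand and the Slc40a1 match at chr1:45925471-45925487 on the minus strand. The 4 matches of Tfrc lie on the plus strand of chromosome 16, at chr16:32631225-32631241, chr16:32631604-32631620, chr16:32631669-32631685 and chr16:32631716-32631732. The other 6 members held 0 matches.

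Promoters were read for the antioxidant members because NRF2 and related factors bind short motifs there. RefSeq windows (GRCm38.p6) from 250 bases before to 50 after the start were at hand for 8 of the 10 members. Srxn1 held 2 copies of TGAGTCA, the core bound by AP-1 and shared with many antioxidant response elements, and Slc7a11 held 2 copies of TGATGCAA, an element bound by ATF4 and C/EBP factors, on opposite strands. Both stretches are shown on the gene's own strand, with the motif copies in capitals.
Srxn1 promoter: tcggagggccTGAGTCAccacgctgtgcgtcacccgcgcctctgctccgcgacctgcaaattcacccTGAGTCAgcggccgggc
Slc7a11 promoter: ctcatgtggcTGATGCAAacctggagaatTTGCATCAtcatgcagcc

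The Srxn1 stretch runs from 112 to 29 bases upstream of the start, at chr2:152105412-152105495 on the plus strand, and the Slc7a11 stretch from 76 to 30 bases upstream, at chr3:50443643-50443689 on the minus strand. Of 32851 promoter windows of the same length, 5.20% held TGAGTCA and 0.895% held TGATGCAA on either strand. The longer antioxidant response core TGACNNNGC was in 12.4% of windows, among them those of Gclm, Srxn1 and Nfe2l2. The motifs are descriptions of the letters, and no binding was measured.

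Malignant cells numbered 3976 to 6269 per mouse with a median of 46799 to 57658 UMIs (unique molecular identifiers, 1 per captured RNA molecule) per cell, and cells named Macrophage numbered 2418 to 2748 per mouse with a median of 16070 to 17049 UMIs. Of 31498 cell barcodes, 113 occurred in 2 libraries. Trp53, floxed in the model, was at 6.56 to 7.71 CPM in malignant cells and 59.4 to 68.7 CPM in macrophages. Levels are CPM, the usual depth-scaled share of a cell's UMIs (1% of the UMIs is 10000 CPM), averaged over the cells of a mouse. One library stood apart: macrophages of vehicle replicate 2 had Xist at 0.161 CPM and Ddx3y at 87.7 CPM. In the other 3 mice they were at 635 to 753 and 1.74 to 2.28 CPM. Xist marks female cells and Ddx3y lies on the Y chromosome. This host thus reads as male and the other 3 as female, although the labels name no difference between hosts. Host sex was then unequal between vehicle and digoxin, and its part in the differences was not tested. The labels do not say whether the 4 tumors were grown separately, so that p-values measure the spread between these samples. The share of macrophages named M1 was also lowest in that library, at 29.0% against 42.5% to 47.6%, and that of M2 highest, at 61.5% against 39.2% to 43.5%. The main macrophage results are therefore also given without this mouse.

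Some deposited names went against their markers. Cells named Microglia summed to 9929 to 10776 CPM of 7 plasmacytoid dendritic cell markers such as Siglech and to 59.6 to 116 CPM of the microglia markers, of which 5 of 6 had a row. Cells named Epithelial summed to 3515 to 4360.0 CPM of 6 endothelial markers and 7.17 to 19.3 CPM of 4 epithelial ones. Both are called by their deposited names only as labels. Cells named Neutrophil held 7327 to 121642 CPM of 6 neutrophil markers but also 13096 to 18965 CPM of the 10 macrophage markers, which exceeded the neutrophil markers in vehicle replicate 2. Osteoclasts carried 22059 to 37354 CPM of 7 osteoclast markers, fibroblasts 30623 to 35825 CPM of 6 fibroblast markers, and macrophages 21958 to 32223 CPM of 10 macrophage markers.

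**Figure D1:**
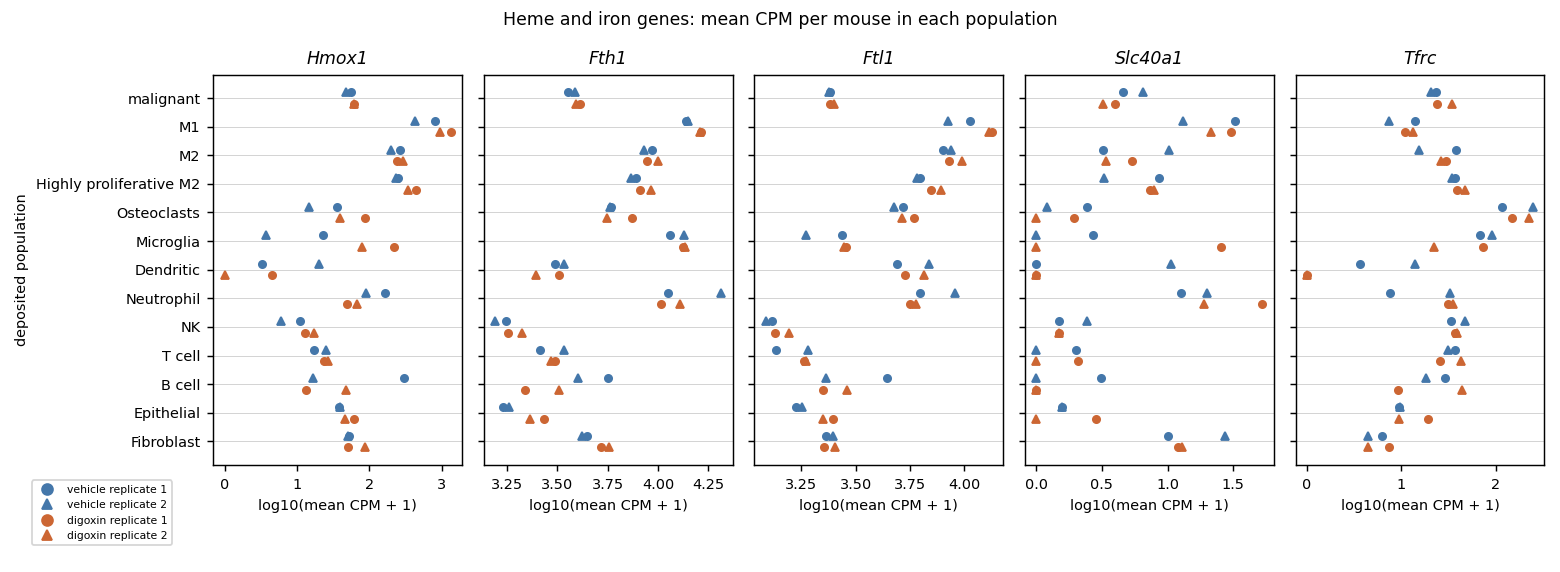
Level of the 5 heme and iron genes, as log10 of the mean CPM plus 1, in each deposited population (rows), with 1 point per mouse: blue for vehicle, orange for digoxin, circles for replicate 1 and triangles for replicate 2. Hmox1 was highest in M1 macrophages and Tfrc in osteoclasts.

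By mean level Hmox1 was mainly a macrophage gene and was highest in M1 macrophages, where a minority of cells carried most of it. In M1 cells under 500 CPM it averaged 62.3 to 74.3 CPM per mouse, and in M2 cells under 500 CPM 136 to 146 CPM. Hmox1 stood at 800.3 and 422 CPM in M1 cells of vehicle replicates 1 and 2, and at 1331 and 936 CPM in those of digoxin replicates 1 and 2. In Highly proliferative M2 cells it was 253, 233, 442 and 337 CPM in the same order, and in M2 cells 267, 198, 238 and 290.3 CPM. Averaged over the 4 mice, the order was M1 (872 ± 375 CPM, SD, n = 4), Highly proliferative M2 (316 ± 95.2), M2 (248 ± 39.6), B cells (94.1 ± 139), neutrophils (92.3 ± 50.7), cells named Microglia (80.5 ± 97.6), fibroblasts (58.8 ± 17.8) and malignant cells (55.4 ± 6.41). It ended with cells named Epithelial (45.6 ± 10.9), osteoclasts (43.4 ± 31.1), T cells (22.2 ± 4.32), NK cells (10.8 ± 4.66) and dendritic cells (6.18 ± 8.60). Cells named Unknown are left out of all orders, since their 30 cells came from vehicle replicate 2 alone, and they had Xist at 596 CPM and Ddx3y at 4.003 CPM, unlike that mouse's macrophages. Ranges of neighbours in the full order over 13 populations overlapped at every step, and that of M1 reached the next population only through vehicle replicate 2. Hmox1 was detected in 51.1% to 55.9% of malignant cells, but these cells are deeper, and their median level was 8.08 to 10.3 CPM. Of malignant cells, 61.99% to 72.96% also held UMIs of at least 3 macrophage markers. The part of macrophage RNA in this detection was not tested.

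The 5 genes whose level over 8 populations most resembled that of Hmox1, by Pearson r of log2(CPM + 1) among 9104 genes, were Paox (0.969), Cltc (0.966), Lgmn (0.943), Fgd4 (0.942) and Ctsb (0.934). Cltc encodes the clathrin heavy chain, and Lgmn and Ctsb encode lysosomal proteases. The 8 points share libraries and 1 of them, macrophages, is far above the rest.

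Ferritin was high in a wider set of cells. Fth1 in M1 cells was 13711 and 14081 CPM with vehicle and 16324.5 and 16107 CPM with digoxin, so that both digoxin mice exceeded both vehicle mice. Neutrophils held 11252, 20586, 10338 and 12841 CPM, with a range that overlapped that of M1, and cells named Microglia 11481 to 13637 CPM, all below the M1 values. NK cells were lowest, at 1554 to 2101 CPM. Ftl1 was likewise highest in M1 cells, at 10623, 8448, 13424 and 13026 CPM, followed by M2 cells at 7994, 8710.0, 8551 and 9800.3 CPM. A gene row named Ftl1-ps1 exists in both tables, and near-identical copies of this kind can take reads from Ftl1, so its level is uncertain.

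The exporter and the importer were highest in different cells. Slc40a1 was 11.6, 18.9, 51.9 and 17.9 CPM in neutrophils, which rest on 11, 5, 34 and 23 cells, and 31.5, 12.04, 29.3 and 20.6 CPM in M1 cells. Tfrc was highest in osteoclasts, at 115, 248, 148 and 222 CPM, above every value of the next population, the cells named Microglia, at 67.3, 90.3, 71.7 and 21.4 CPM. In M1 cells Tfrc was only 6.42 to 13.0 CPM, below every value in M2 cells (14.4 to 37.0 CPM). Slc40a1 ran the other way, at 12.04 to 31.5 CPM in M1 and 2.21 to 9.24 CPM in M2, again without overlap.

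**Figure D2:**
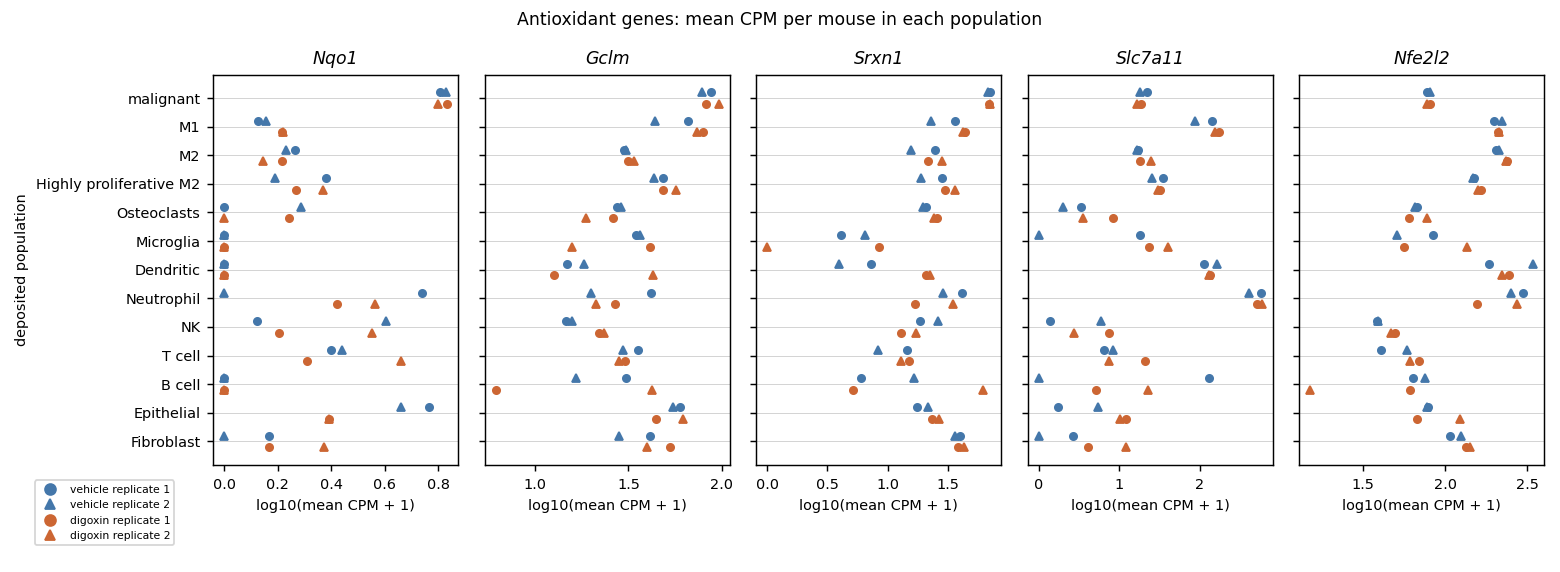
Level of the 5 antioxidant genes, as log10 of the mean CPM plus 1, in each deposited population, with 1 point per mouse (blue vehicle, orange digoxin, circles replicate 1, triangles replicate 2). Among the 13 populations shown, Srxn1 and Nqo1 were highest in malignant cells and Slc7a11 in neutrophils.

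The antioxidant members split between tumor and host. Srxn1 was 69.8, 67.1, 69.3 and 70.5 CPM in malignant cells, above all values in fibroblasts, next among the 13 ordered populations, at 38.9, 35.3, 37.3 and 42.5 CPM. The cells named Unknown had 61.8 CPM of Srxn1, 93.3 CPM of Gclm and 12.3 CPM of Nqo1 (20 UMIs), the last above every malignant value. Gclm was 87.1, 77.2, 82.0 and 95.5 CPM in malignant cells and 65.2, 43.0, 78.6 and 73.0 CPM in M1 cells, so that the highest M1 value exceeded the lowest malignant one. Nqo1 was low throughout, at 5.39, 5.74, 5.80 and 5.26 CPM in malignant cells. Cells named Epithelial had 4.83 and 3.57 CPM of Nqo1 with vehicle and 1.47 and 1.45 CPM with digoxin (8, 7, 3 and 4 UMIs). Macrophages had 0.606 to 0.698 CPM. Nqo1 had 0 UMIs in cells named Microglia, Dendritic or B cell.

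Slc7a11, which imports cystine for glutathione, was highest in neutrophils at 571, 409, 511 and 585 CPM, and 73.9% to 90.9% of these few cells held a UMI of it. M1 cells followed at 138, 85.6, 172 and 155 CPM, without overlap with the neutrophils, and dendritic cells at 111 to 163 CPM overlapped M1. Malignant cells held 15.4 to 21.1 CPM. The genes most like Slc7a11 over the 8 populations compared for likeness were G6pdx (0.970), Flrt3 (0.953), Gpr84 (0.948), Slc48a1 (0.943) and Fbxl5 (0.905). Neutrophils and dendritic cells are not among the 8, and M1 enters only as a part of all macrophages. Macrophages, at 70.9 CPM of Slc7a11, were again far above the other points. G6pdx makes NADPH, Slc48a1 moves heme out of lysosomes and Fbxl5 senses iron. Nfe2l2 itself was broader, at 185, 343, 245 and 221 CPM in dendritic cells and 298, 251, 155 and 272 CPM in neutrophils, and it overlapped M2 (203 to 236 CPM) and M1 (197 to 222 CPM).

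To ask what digoxin did to these genes, groups were compared by mouse in the 11 populations with at least 20 cells in every mouse, using limma across all genes kept by a filter on low counts. In macrophages as a whole, both digoxin values lay above both vehicle values for 7 of the 10 members and below them for 0. Among all 13734 genes tested there, 13.6% were higher in that way and 17.3% lower, and the median log2 difference was 0.28 over the members and -0.01 over all genes. Without vehicle replicate 2 the member counts were 7 and 2, beside 24.6% and 41.6% of all genes, and without vehicle replicate 1 they were 10 and 0, beside 41.6% and 33%. No member passed an adjusted p of 0.05 by limma with Benjamini-Hochberg adjustment in any of the 11 populations, and in macrophages 0 of all genes did (0%). At an unadjusted p under 0.05 limma listed 555 macrophage genes, edgeR's adjusted count was 0 and DESeq2's was 20. In macrophages 3 of 6 neutrophil markers were higher in both digoxin mice and 0 lower, with sums of 57.6 and 45.4 against 88.95 and 64.95 CPM. Of 6 mast cell markers 5 were higher and 0 lower, with sums of 3.02 and 2.08 against 5.86 and 5.46 CPM. The median mitochondrial share was 5.195% and 6.437% with vehicle and 4.741% and 4.527% with digoxin. The share of macrophages named M1 was 45.29% and 28.99% with vehicle and 47.56% and 42.54% with digoxin. The part of any of these in the member counts and in the macrophage differences below was not tested.

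Hmox1 in all macrophages was 506 and 267 CPM in vehicle replicates 1 and 2 and 781 and 572 CPM in digoxin replicates 1 and 2. The groups did not overlap, and vehicle replicate 2 was the low sample. On the log2 scale they differed by 0.86 (SE 0.30, adjusted p = 1 by limma). Without vehicle replicate 2 it was 0.40 and without vehicle replicate 1 it was 1.32, so that 1 control mouse decides its size.

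Of the antioxidant members, Slc7a11, Srxn1 and Gclm showed separate groups with digoxin on the upper side, and Nqo1 did not. Slc7a11 in macrophages was 74.2 and 36.7 CPM with vehicle and 92.3 and 80.3 CPM with digoxin, a log2 difference of 0.71 (SE 0.30, adjusted p = 1). Srxn1 was 29.7 and 17.1 CPM against 32.4 and 34.4 CPM, and Gclm 48.2 and 34.7 CPM against 55.2 and 53.2 CPM. In each of the 3 the groups were separate and vehicle replicate 2 was lowest. Without that mouse the log2 differences were 0.21, 0.16 and 0.17, and without vehicle replicate 1 they were 1.21, 0.93 and 0.63. Nqo1 was 0.698 and 0.606 CPM with vehicle and 0.669 and 0.637 CPM with digoxin, so that the groups overlapped.

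The ferritins depended less on that mouse. Ftl1 was 8912 and 8386 CPM with vehicle and 10705 and 10894 CPM with digoxin, and Fth1 was 11098 and 9999.7 CPM against 12316 and 12501 CPM. The 2 digoxin values of each lay close together and above both controls. The log2 differences were 0.32 (SE 0.13) for Ftl1 and 0.24 (SE 0.14) for Fth1, both with limma adjusted p = 1. Without vehicle replicate 2 they were 0.28 and 0.16.

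Nfe2l2, the factor, was 192 and 209 CPM with vehicle and 216 and 214 CPM with digoxin, a log2 difference of 0.10 (SE 0.10), and of 0.16 without vehicle replicate 2. Slc40a1 (16.3 and 9.39 against 16.4 and 10.7 CPM) and Tfrc (26.0 and 13.8 against 20.8 and 22.8 CPM) overlapped between groups. Their log2 differences of 0.09 and 0.19 became -0.28 and -0.25 without vehicle replicate 2.

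**Figure D3:**
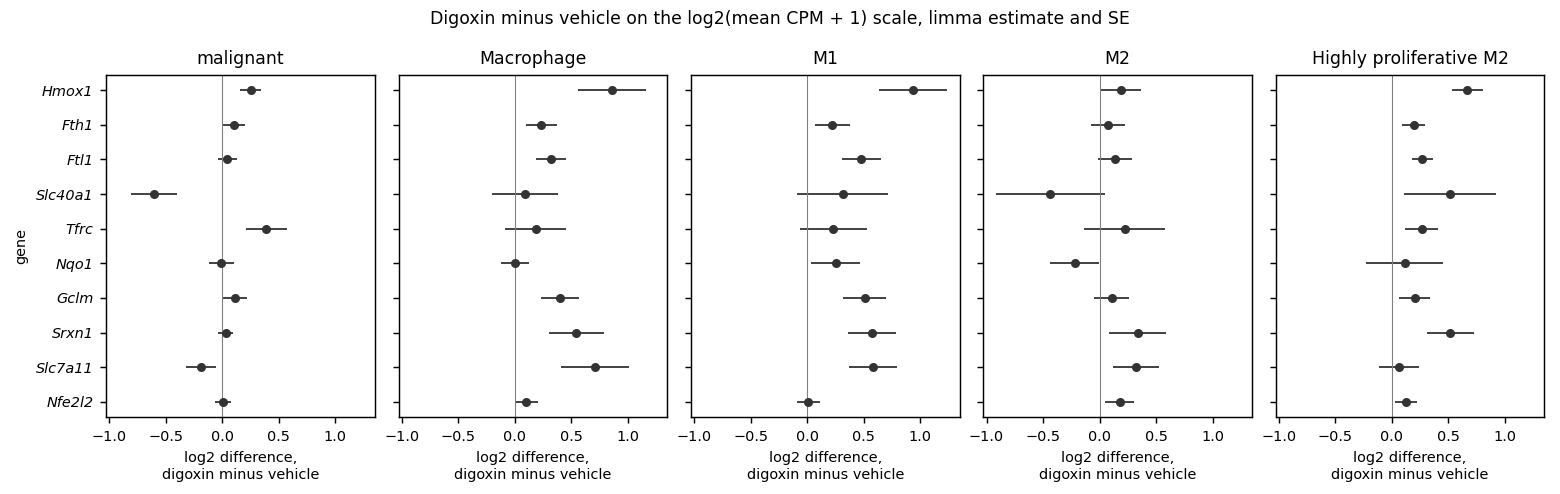
Log2 difference, digoxin minus vehicle, on the log2(mean CPM + 1) scale for the 10 members in malignant cells, all macrophages and the 3 macrophage sub-clusters; points are limma estimates and bars their SE over 2 mice a group. Hmox1 lies at 0.86 in macrophages and 0.94 in M1 and at 0.19 in M2.

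Among the sub-clusters, M1 cells showed 7 members higher in both digoxin mice and 0 lower (background 15.3% and 24%), Highly proliferative M2 cells 7 and 0 (17.4% and 12.6%), and M2 cells 3 and 1 (15% and 11.7%). Without vehicle replicate 2 these counts were 8 and 2 in M1 (background 24.6% and 44.5%), 7 and 3 in Highly proliferative M2 (31% and 32.4%) and 5 and 2 in M2 (27.5% and 40.2%). Member medians of the log2 difference were 0.40, 0.23 and 0.16, beside all-gene medians of -0.02, 0.02 and 0.02. In M1 cells Hmox1 differed by 0.94 (SE 0.30, limma adjusted p = 0.539), and by 0.48 without vehicle replicate 2 and 1.40 without vehicle replicate 1. Slc7a11, Srxn1, Gclm and Ftl1 in M1 differed by 0.58, 0.57, 0.51 and 0.48, with adjusted p from 0.578 to 0.58. None of these passed under an alternative that kept all mice, and without vehicle replicate 2 the differences were 0.24, 0.23, 0.21 and 0.32.

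In M2 cells Hmox1 overlapped between the groups, with a log2 difference of 0.19 (-0.02 without vehicle replicate 2). Macrophage markers in M1 cells summed to 20419, 21858, 18469 and 21821 CPM, 5 of 10 being lower and 1 higher in both digoxin mice, and of 6 neutrophil markers 4 were higher and 1 lower, with sums of 64.5 and 61.8 against 120 and 89.1 CPM. The part of either list in the M1 result was not tested. The digoxin effect on Hmox1 was 0.75 lower in M2 than in M1 on the log2 scale (effect difference -0.75, SE 0.25), and in the test of that difference limma called 0 of 11932 genes (0%), with adjusted p = 0.82 for Hmox1, 706 genes at an unadjusted p under 0.05 and 0 called by edgeR. Without vehicle replicate 1 the effect difference was -0.997 for Hmox1, -2.24 for Slc40a1, -0.71 for Gclm and -0.57 for Ftl1. Without vehicle replicate 2 it was -0.50 for Hmox1, 0.75 for Slc40a1, -0.09 for Gclm and -0.12 for Ftl1. In Highly proliferative M2 cells Hmox1 differed by 0.67 (SE 0.14, limma adjusted p = 1), and it passed by DESeq2 (0.90, adjusted p = 3.84e-10). Hmox1 there differed by 0.73 without vehicle replicate 1 and by 0.61 without vehicle replicate 2. That level rests on few cells: the 5 highest cells held 43.1% to 70.1% of it in each mouse, and 1 cell of digoxin replicate 2 held 820 UMIs.

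In M1 cells the groups also differed in the spread over cells. The median M1 cell held 52.3 and 0 CPM of Hmox1 with vehicle and 72.8 and 68.3 CPM with digoxin, while the 90th percentile was 1241 and 325 CPM with vehicle and 4053 and 2520.4 CPM with digoxin. Cells with at least 1000 CPM of Hmox1, a limit chosen after the values were seen, made up 10.6% (exact 95% interval 8.83% to 12.6%) and 5.20% (3.69% to 7.09%) of M1 cells with vehicle. They made up 17.8% (15.7% to 19.9%) and 14.0% (12.04% to 16.1%) with digoxin. Both digoxin mice were higher, but the intervals, which cover counting error only, overlapped between vehicle replicate 1 and digoxin replicate 2, and 2 mice against 2 cannot give a two-sided exact permutation p below 0.333.

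Within those cells the level did not separate the groups, with a mean of 6737, 6704, 7007 and 6041 CPM in the same order of mice. The cells were picked by Hmox1 itself, so these means cannot tell a change in share from a change in level. In the M1 cells under the limit Hmox1 averaged 96.9, 78.0, 106 and 107 CPM. The cells above the limit carried 82.5% to 93.4% of all M1 Hmox1. The ratio of the mean share, digoxin over vehicle, was 2.01, and it was 1.92 and 1.91 with limits of 500 and 2000 CPM, 1.498 without vehicle replicate 2 and 3.05 without vehicle replicate 1.

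The other members were then compared inside M1 cells of each mouse, between the 10% of cells highest in Hmox1 (71 to 131 cells per mouse) and the rest. The lowest Hmox1 in the high cells was 1242 and 339 CPM with vehicle and 4060 and 2562 CPM with digoxin. High cells and rest are thus not alike between mice. Slc40a1 was 294, 116, 224 and 168 CPM in the high cells and 2.14, 0.476, 7.63 and 4.08 CPM in the rest, 29.4 to 245 times as high. Gclm was 10.6 to 14.0 times as high, Srxn1 3.45 to 7.42, Ftl1 3.65 to 4.33, Fth1 2.84 to 4.36 and Slc7a11 1.76 to 3.39 times as high. Fth1 reached 33787 to 49220 CPM and Ftl1 25986 to 39648 CPM in the high cells. Of the 10 members, 8 were higher there in all 4 mice, Hmox1 by construction, Tfrc was higher in 3 of 4 mice, and Nfe2l2 was lower in all 4 (ratio 0.608 to 0.777). Among the 11178 other genes with at least 10 UMIs in M1 cells of every mouse, 17.6% were higher and 28.6% lower in all 4 mice, and of the 8 members with that many UMIs, Hmox1 left out, 6 were higher and 1 lower.

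**Figure D4:**
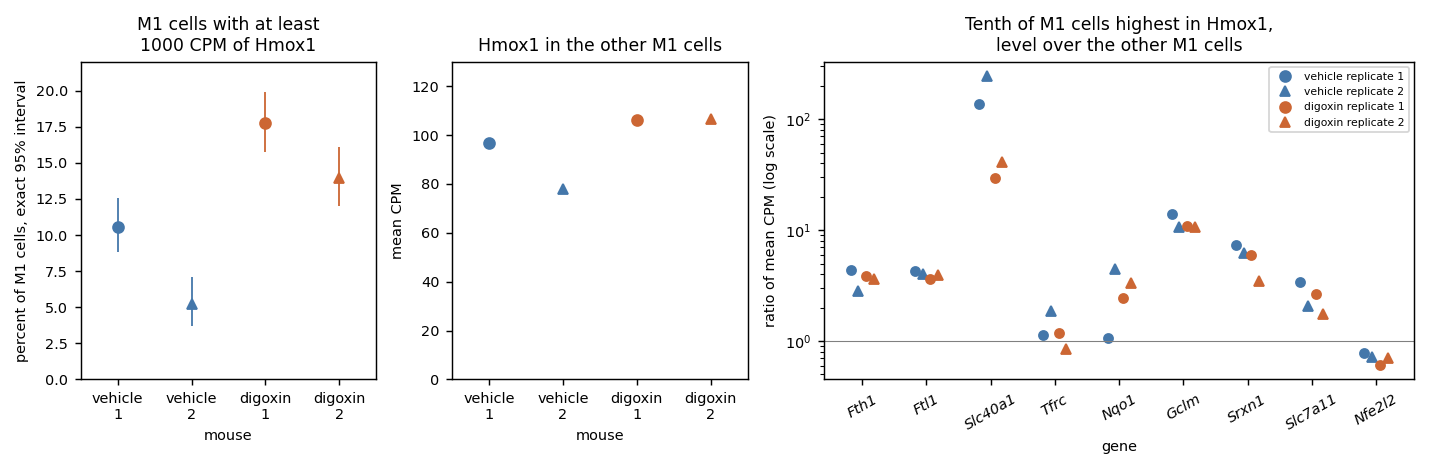
Left, percent of M1 cells with at least 1000 CPM of Hmox1 per mouse with exact 95% intervals; middle, mean CPM of Hmox1 in the other M1 cells; right, ratio of mean CPM (log scale) between the 10% of M1 cells highest in Hmox1 and the rest, per member and mouse. Slc40a1 lies at 29.4 to 245 and Nfe2l2 below 1 in every mouse.

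Genes outside the member list followed in the same cells. Of 13 heme handling genes, 7 were higher and 2, Hp and Abcg2, lower in the Hmox1-high M1 cells of all 4 mice. These were all among the 11 with at least 10 UMIs in every mouse. The all-gene shares beside this list and the next 2 are 17.6% higher and 28.6% lower. Slc48a1, which moves heme out of lysosomes, was 6.27 to 9.19 times as high, Spic, a factor of red-pulp macrophages, 5.78 to 13.0 times and biliverdin reductase B (Blvrb) 2.95 to 3.48 times as high. Of 15 further NRF2 targets, 13 were higher in all 4 mice, among them Prdx1 (4.52 to 7.52 times), Osgin1 (4.38 to 13.0 times) and Esd (4.22 to 5.12 times), and 1, Tkt, was lower. Macrophage markers did not move as a block, with 4 of 10 higher and 2 lower in all 4 mice, Csf1r and Aif1 being lower. The high cells were deeper, with a median of 15533 to 20590.0 UMIs against 12661 to 14309 in the rest, and the part of depth in these ratios was not tested. The 10% is a range and not a cell type: 31 to 59 cells per mouse just outside it had at least 0.5 times the Hmox1 of its lowest cell.

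In M2 cells the same split gave smaller ratios for Slc40a1 and Gclm. The top 10% held 44.2% to 59.5% of the M2 Hmox1 level, against 81.3% to 88.7% in M1. Slc40a1 was 4.79 to 14.2 times as high there, Gclm 1.77 to 2.92 times, and 6 of the 15 further NRF2 targets were higher and 0 lower in all 4 mice. Of the 10 members, 7 were higher, Hmox1 by construction, and 1 was lower. Of the 9 members with at least 10 UMIs in every mouse, Hmox1 left out, 6 were higher and 1 lower, beside 12.5% and 14.7% of 11819 genes.

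In malignant cells most members differed little with treatment, with Slc40a1 and Tfrc the largest exceptions. Of the 10, 4 were higher in both digoxin mice and 1 was lower (background 12.8% and 16.5%), with a member median of 0.04 and an all-gene median of -0.01. By limma 0 of 17138 genes passed (0%), 585 had an unadjusted p under 0.05, and the counts past the threshold were 0 by edgeR and 45 by DESeq2. Hmox1 was 54.5 and 46.7 CPM with vehicle and 60.4 and 60.0 CPM with digoxin, a log2 difference of 0.25 (SE 0.09, adjusted p = 1), and it was 0.14 without vehicle replicate 2. Srxn1, Nqo1, Nfe2l2 and Ftl1 differed by 0.03, -0.01, 0.01 and 0.04. Tfrc was 22.4 and 19.5 against 23.1 and 33.1 CPM (0.39, adjusted p = 1). Of 6 neutrophil markers 5 were higher in both digoxin mice and 0 lower in malignant cells. Their sums were 11.5 and 11.8 against 31.8 and 19.7 CPM, and their part in the members' values was not tested.

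Slc40a1 was the member lower in malignant cells, at 3.55 and 5.46 CPM with vehicle and 2.97 and 2.20 CPM with digoxin, a log2 difference of -0.61 (SE 0.20, adjusted p = 1), which was -0.35 without vehicle replicate 2 and -0.86 without vehicle replicate 1. Markers of macrophages lay lower in the same libraries, 8 of 10 of them in both digoxin mice, with a sum of 627 and 635 CPM against 475 and 492 CPM and 0 markers undetected. So did 4 of 6 fibroblast markers, with a sum of 6038 and 6323 against 5048 and 4391 CPM and 0 undetected. Which cells made this RNA, and its part in this result, was not tested. Leaving out the 61.99% to 72.96% of malignant cells with UMIs of at least 3 macrophage markers gave 3.92 and 7.11 CPM against 3.55 and 2.53 CPM of Slc40a1, a log2 difference of -0.66. The filtered values rest on 233 and 480 UMIs with vehicle and 184 and 81 UMIs with digoxin. The part of macrophage RNA in the difference was not tested. The digoxin effect on Hmox1 was 0.61 larger in macrophages than in malignant cells (SE 0.25), with adjusted p = 0.999, 0 of 13532 genes called by limma (0%), 549 at an unadjusted p under 0.05 and 0 called by edgeR; on Slc7a11 it was 0.90 larger (adjusted p = 0.999). Without vehicle replicate 2 these differences in effect were 0.26 and 0.55, and without vehicle replicate 1 they were 0.96 and 1.25.

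Cells named Microglia gave the largest fitted difference of a member among the 11 populations, and most of its UMIs lay in 4 cells. Hmox1 was 22.1 and 2.74 CPM with vehicle, on 16 and 1 UMIs, and 219 and 78.6 CPM with digoxin, on 335 and 37 UMIs. The groups did not overlap, although without marked doublets they did, at 21.4, 2.74, 146 and 7.08 CPM (log2 difference 1.92, adjusted p = 0.993). With all cells they differed by 3.83 on the log2 scale (SE 0.68, adjusted p = 0.1 by limma, 0 of 5818 genes called, 0%, 278 at an unadjusted p under 0.05, 0 by edgeR and 1 by DESeq2). The difference was 5.14 without vehicle replicate 1 and 2.52 without vehicle replicate 2. It was 3.10 without digoxin replicate 1 and 4.565 without digoxin replicate 2. Such a fit cannot measure the spread in the group left with 1 mouse, so no p-value is given here.

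The digoxin UMIs lay in few cells. In digoxin replicate 1, 3 cells held 216, 57 and 53 of the 335 UMIs and carried UMIs of 10, 8 and 6 of the 10 macrophage markers, beside 6, 6 and 5 of the 7 plasmacytoid markers. In digoxin replicate 2, 1 cell held 34 of the 37 UMIs and carried 8 macrophage markers. These 4 cells had 15294 to 28931 UMIs, against a population median of 9197 to 10460.5. In digoxin replicate 2, 2 other cells held 1 UMI of Hmox1 each. They carried 7 and 10 macrophage markers and had 22231 and 20128 UMIs in total. The cell with 216 UMIs of Hmox1 also held all 41 UMIs of Slc40a1 in that mouse. Over all cells named Microglia the macrophage markers summed to 1285, 534, 1188 and 1661 CPM, with 5 of 10 higher in both digoxin mice. Without cells that had UMIs of at least 3 macrophage markers, 38, 22, 35 and 12 cells were left, and Hmox1 was 21.3, 0, 9.87 and 0 CPM, with overlapping groups.

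**Figure D5:**
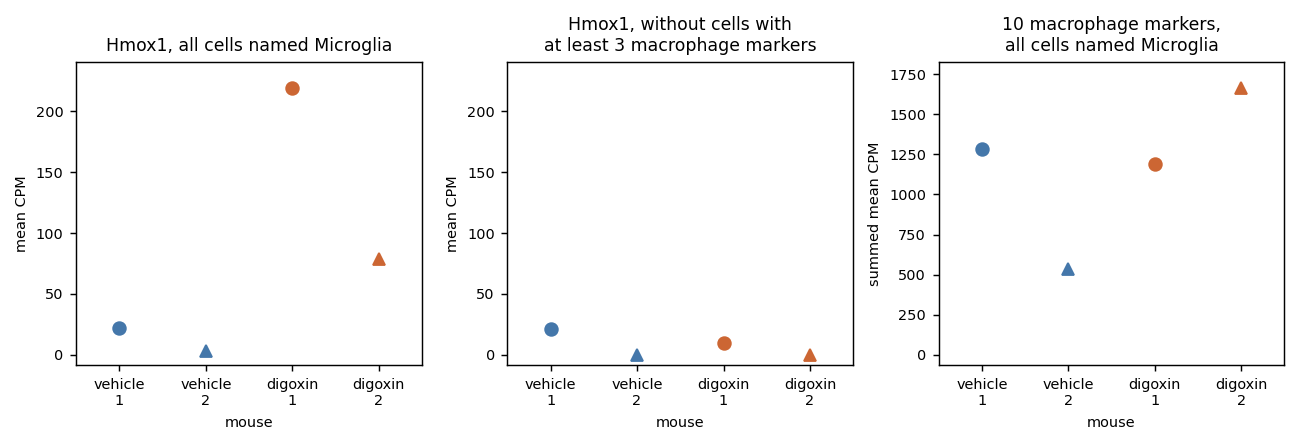
Cells named Microglia, 1 point per mouse: mean CPM of Hmox1 in all these cells (left) and without cells that had UMIs of at least 3 macrophage markers (middle, same axis), and the summed mean CPM of 10 macrophage markers (right). The digoxin values of 219 and 78.6 CPM become 9.87 and 0 CPM.

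Slc7a11 in cells named Microglia was 16.8 and 0 CPM with vehicle and 22.3 and 39.1 CPM with digoxin (log2 difference 2.86, adjusted p = 0.98), on 14, 0, 30 and 12 UMIs, and it was 0 in every mouse without the cells that had macrophage markers. Tfrc there was 67.3 and 90.3 against 71.7 and 21.4 CPM (-0.97, adjusted p = 0.98, and -1.82 without digoxin replicate 1). In this population 3 of the 10 members were higher in both digoxin mice and 0 lower, the same counts as among the 7 that passed the filter on low counts (background 16.7% and 16.2%). The digoxin effect on Hmox1 in macrophages minus that in cells named Microglia was -2.97 (adjusted p = 0.974, 1 of 5786 genes called, 0.0173%). Without vehicle replicate 1 it was -3.82 and without vehicle replicate 2 it was -2.12. The same difference in effect for Slc7a11 was -2.15 with all mice (limma adjusted p = 0.997). It was -3.73 without vehicle replicate 1 and -0.57 without vehicle replicate 2.

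Cells named Epithelial, which carry endothelial genes, had both ferritins higher with digoxin. Fth1 was 1703 and 1825 CPM with vehicle and 2706 and 2307 CPM with digoxin (log2 0.50, SE 0.11, limma adjusted p = 0.108), and Ftl1 was 1678 and 1783 against 2491 and 2242 CPM (0.45, SE 0.10, adjusted p = 0.141). The groups were separate for both, and limma called 48 of all genes in this population (0.467%) and edgeR 0, neither ferritin among them. Both ferritins passed only in fits without a vehicle mouse, which leave 1 control mouse and called more genes than with all mice. No member passed with a digoxin mouse left out. In total 5 of the 10 members were higher and 1, Nqo1, lower. Nqo1 did not pass the filter on low counts, and of the 8 members that did, 5 were higher and 0 lower (background 17.8% and 16.3%).

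Markers of other cells moved with this result. The 6 mast cell markers summed to 59.4 and 264 CPM with vehicle and 4806 and 5382 CPM with digoxin, 5 of 6 being higher in both digoxin mice and 0 undetected. Without the 0, 1, 5 and 6 cells with UMIs of at least 3 of them, Fth1 was 1703, 1747, 2429 and 1857 CPM (log2 0.30, adjusted p = 0.997) and the population's calls numbered 3. Macrophage markers summed to 426, 861, 1051 and 1193 CPM, 7 of 10 being higher. Without cells with UMIs of at least 3 of those, Fth1 was 1552, 1590, 2235 and 1642 CPM (0.29, adjusted p = 0.878) and Ftl1 1631, 1597, 1774 and 1899 CPM (0.18). The groups stayed apart for both genes, and the size of the difference was smaller.

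Slc7a11 in cells named Epithelial was 0.734 and 4.36 CPM against 11.2 and 9.26 CPM, on 8, 10, 29 and 15 UMIs (log2 1.88, adjusted p = 0.529). Without cells with UMIs of at least 3 macrophage markers it was 0, 0, 3.13 and 0.985 CPM. Hmox1 in osteoclasts was 34.8 and 13.7 CPM with vehicle and 87.1 and 38.0 CPM with digoxin (log2 1.35, SE 0.45, limma adjusted p = 0.781). The groups did not overlap, and in digoxin replicate 1 the 5 highest of 47 cells held 75.2% of the level. Without cells over 20% mitochondrial UMIs they did overlap, at 34.8 and 14.2 CPM against 69.5 and 32.3 CPM (log2 1.05). Without vehicle replicate 2 the difference was 0.71. Of the 10 members, 3 were higher and 1 was lower in osteoclasts, and of the 7 that passed the filter 2 and 1 (background 21.6% and 15.8%), where limma called 1 of 7803 genes (0.0128%).

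In NK cells 5 members were higher and 1 lower, all among the 8 that passed the filter (background 19.1% and 16.9%, 0.0765% called by limma), among them Hmox1 at 9.94 and 5.07 against 11.9 and 16.3 CPM. Macrophage markers moved with these counts, 6 of 10 being higher in both digoxin mice, with sums of 603 and 612 against 699 and 1103 CPM and 0 undetected. Without cells with UMIs of at least 3 of them, Hmox1 (5.08 and 1.35 against 5.07 and 13.4 CPM), Fth1 and Ftl1 overlapped between groups, whereas Gclm and Nfe2l2 did not. In T cells 1 member was higher and 0 lower, of 8 that passed the filter (14.3% and 19%). In fibroblasts Fth1, Nfe2l2 and Slc7a11 were higher and 0 members lower, and of the 7 that passed the filter, Slc7a11 not among them, 2 and 0 (10.1% and 19.4%). Macrophage markers in fibroblasts summed to 477 and 139 against 695 and 648 CPM, 2 of 10 being higher in both digoxin mice and 0 undetected. Without cells with UMIs of at least 3 of them, all 3 members overlapped between groups, Fth1 at 3916.5 and 4295 against 4110 and 6403 CPM. Gclm in NK cells was 13.5 and 14.7 CPM against 20.9 and 22.4 CPM. Some populations had too few cells for a test. In neutrophils Hmox1 was 164 and 88.5 CPM with vehicle and 48.8 and 67.8 CPM with digoxin, on 22, 3, 25 and 21 UMIs in the same order, so that both digoxin values were lower. In dendritic cells Srxn1 was 6.26 and 2.96 against 19.8 and 21.5 CPM, on 2, 1, 5 and 3 UMIs, and in B cells Hmox1 of 302 CPM in vehicle replicate 1 stood against 12.3 to 47.1 CPM in the other mice, but 1 of its 18 cells held 250 of the 261 UMIs, and the other mice held 1 to 3 UMIs.

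The rest of the pathways was read from 7 gene lists chosen with earlier results known, and limma called 0 of their genes in malignant cells, macrophages, M1 and cells named Microglia. In macrophages, 5 of the 15 further NRF2 targets were higher in both digoxin mice and 0 lower (median log2 difference 0.19), such as Txnrd1 and Prdx6, both chosen after their values were seen. Txnrd1 was 99.1 and 65.6 against 113 and 127 CPM and Prdx6 216.5 and 151 against 265 and 248 CPM, with vehicle replicate 2 lowest in both. Without that mouse their log2 differences were 0.27 and 0.24, and without vehicle replicate 1 they were 0.86 and 0.76. Of the 9 NRF2 regulators 5 were higher and 0 lower (median 0.18), of 11 heme handling genes tested 5 and 1 (0.10), of 21 iron handling genes 5 and 1 (0.02), and of 13 glutathione genes 2 and 3 (0.08). Heme synthesis had 0 higher and 3 lower of 8 (-0.02), and superoxide genes 2 and 2 of 8 (-0.01), beside an all-gene median of -0.01 and the background of 13.6% and 17.3%. With vehicle replicate 2 left out, the counts were 5 and 4 for further NRF2 targets, 6 and 1 for NRF2 regulators, 9 and 1 for heme handling, 5 and 8 for iron handling, 5 and 5 for glutathione, 0 and 5 for heme synthesis and 3 and 3 for superoxide genes, beside 24.6% and 41.6% of all genes. Cd163, the receptor that takes up hemoglobin bound to haptoglobin, was lower with digoxin in macrophages, at group means of 53.0 and 26.6 CPM (-0.97, adjusted p = 0.985). Its log2 difference was -1.13 without vehicle replicate 1 and -0.80 without vehicle replicate 2. Cd163 was also lower in malignant cells, at 2.15 and 0.407 CPM (-1.16, adjusted p = 0.415), where it was chosen after its values were seen. The malignant difference was -1.04 without vehicle replicate 1 and -1.28 without vehicle replicate 2. In the same malignant libraries 8 of 10 macrophage markers were lower in both digoxin mice, with sums of 627 and 635 against 475 and 492 CPM, and their part in the Cd163 difference was not tested.

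In malignant cells Cul3, the scaffold of the ligase that degrades NRF2, was at group means of 39.3 and 57.6 CPM (adjusted p = 1), and 2 of 15 further NRF2 targets were higher and 0 lower (background 12.8% and 16.5%). Genes of the dissociation response can be induced by enzymatic tissue digestion. Of 10, 4 were lower and 1 higher in both digoxin mice in malignant cells (background 16.5% and 12.8%). In macrophages 4 were lower and 0 higher (17.3% and 13.6%). Without vehicle replicate 2 these counts were 5 and 3 (41.6% and 24.6%). Jun was at group means of 573 and 335 CPM in macrophages. Its log2 difference was -0.42 without vehicle replicate 2 and -1.10 without vehicle replicate 1. Ier2 was at 881 and 638 CPM in malignant cells. In cells named Microglia, Ireb2, an iron regulatory protein, was 15.3 and 37.5 CPM and Hspa1a 4.45 and 118 CPM. The log2 difference of Hspa1a was 2.98 without vehicle replicate 1 and 6.29 without vehicle replicate 2. It was 6.05 without digoxin replicate 1 and 3.23 without digoxin replicate 2. The part of the dissociation response in the members' values was not tested.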

How the data were processed

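Single-cell RNA of 2 vehicle and 2 digoxin tumors was analysed. Cells were processed with Cell Ranger 3.0.2 and Seurat 3.0.2 on mm10, per the submitters' processing notes. Expression was deposited on a natural log scale, ln(1 + UMIs per 10000), and the authors' cell tables give each cell's UMI count, through which 100% of values returned whole UMIs within 0.01. One vehicle library carries another number in its cell names and was assigned to vehicle replicate 2 by the deposited cell table. Populations are the deposited clusters and macrophage sub-clusters, and no cell was removed in the main results. Scrublet (scanpy 1.11.5) marked 1381 of 31611 cells as doublets (4.37%).

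Per mouse and population, the cells' CPM values were averaged, and limma 3.58.1 was run on log2(mean CPM + 1) (variance trend, Benjamini-Hochberg adjustment at 0.05) over all genes kept by edgeR's filterByExpr; this scale understates changes of low genes. The mouse was the replicate. Differences in effect between populations were tested as interactions with the mouse as a block. Alternatives were edgeR and DESeq2 on the recovered counts, summed CPM, pseudocounts of 0.1 and 10, no filter, each mouse left out, a replicate block, and cell filters on doublets, mitochondrial share (20%) and macrophage markers. Alternatives on mast cell markers, a crossed block and limits of Hmox1 were chosen after seeing the data. A mouse left alone in a group is assumed to vary like the other group. Calls from such fits show only how far a result depends on a single mouse. Scripts were tested on simulated data. Where a member has 0 UMIs, up to 3 counts cannot be told from none, and exact 95% intervals cover counting error only.

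The members and gene lists were chosen with earlier results of these data known. Members are given mouse by mouse in the 2 populations where they are highest, and where groups are separate with an absolute log2 difference of at least 1 and a mean of at least 20 CPM; list genes named are, in malignant cells, macrophages and cells named Microglia, the 2 with the largest absolute log2 difference among those with separate groups and a mean of at least 20 CPM, and others, such as those of the Hmox1-high cells, were chosen after their values were seen. Slc40a1 reached 20 CPM in none of the 8 populations compared for likeness, so no genes like it are named. Same-numbered mice deviated apart or not at all (correlation -0.363 to 0.0608), so the numbers do not pair them.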

Additional observations from a re-analysis of the deposited data

How the results depend on the processing

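In the main limma fit none of 28 log2 differences of members passed. Of 410 alternative values for them, 386 kept their direction and side of the threshold, 20 passed it and 4 reversed. The reversed values were Slc40a1 in macrophages at -0.28 without vehicle replicate 2 and -0.19 without digoxin replicate 1, Tfrc in macrophages at -0.25 without vehicle replicate 2, and Hmox1 in M2 at -0.02 without vehicle replicate 2. With each mouse left out in turn these ranged from -0.28 to 0.46, from -0.25 to 0.62 and from -0.02 to 0.40. The cause was not tested. With 2 mice a group, 1 control library decides most calls.

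Genes called by limma numbered 0 in malignant cells (45 by DESeq2, 0 to 5 with a mouse left out), 0 in fibroblasts (1 by DESeq2, 0 to 462), 0 in macrophages (20 by DESeq2, 0 to 132), 0 in M1 (42 by DESeq2, 0 to 224), 0 in M2 (9 by DESeq2, 0 to 50), 0 in Highly proliferative M2 (16 by DESeq2, 0 to 256) and 0 in T cells (0 to 198). Cells named Microglia had 0 (1 by DESeq2, 2 with a pseudocount of 10, 4 without marked doublets, 1 to 72 with a mouse left out), and there Hmox1 passed with the pseudocount of 10 (2.82, adjusted p = 0.049). Cells named Epithelial had 48 (0 by edgeR with either scaling and with summed CPM, 15 by DESeq2, 18 with a pseudocount of 0.1, 6 with no filter, 27 without marked doublets, 26 without cells over 20% mitochondrial UMIs, 3 without cells with mast cell markers, 3 to 341 with a mouse left out). NK cells had 7 (17 by edgeR with either scaling, 0 without marked doublets, 1 without cells with macrophage markers, 12 to 142 with a mouse left out), and osteoclasts 1 (0 by edgeR with either scaling and with summed CPM, 2 by DESeq2, 0 to 6). Differences in effect gave 0 to 107 genes for macrophages against malignant cells (0 with all mice), 2 to 73 against cells named Microglia (1 with all mice) and 0 to 250 for M2 against M1 (0 with all mice) with a mouse left out. Osteoclasts, macrophages and their sub-clusters could not be fitted without cells with macrophage markers, since under 10 cells a mouse were left or the markers define them.

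The replicate numbers did not pair the mice. A replicate block moved the calls to 85 in cells named Epithelial, 23 in NK cells, 3 in osteoclasts and 57 in T cells, and no member passed with it. A crossed replicate block, chosen after seeing the data, gave 40 calls in cells named Microglia, Hmox1 and Ftl1 among them.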
